A study of Chlorocebus sabaeus with 3 samples.

Results

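Prostaglandins are lipid mediators made from arachidonic acid, which phospholipases free from membranes. The cyclooxygenases PTGS1 and PTGS2 convert arachidonic acid to an unstable intermediate, from which terminal synthases form the individual prostaglandins. The mediators act on G protein-coupled receptors at the cell surface, and they are removed by uptake through the transporter SLCO2A1 and oxidation by the dehydrogenase HPGD. In the eye they take part in inflammation, vascular responses, and the control of intraocular pressure. The 10 genes described here are the 2 cyclooxygenases, the synthases PTGES and PTGDS, the degrading enzyme HPGD, the transporter SLCO2A1, and the receptors PTGER2, PTGER3, PTGER4, and PTGFR, out of 19775 genes with a probe set of their own. They were selected on their values in these arrays, because a synthase, a degrading enzyme, and a receptor had their highest levels in different tissues. Their differences between the tissues are therefore a description.

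Total RNA of limbus, cornea, and conjunctiva from vervet monkeys (Chlorocebus sabaeus) was amplified and hybridized to human Affymetrix U133 Plus arrays, each tissue on an array of its own (3 arrays). The limbus is the narrow rim where corneal and conjunctival epithelium meet, and it houses stem cells of the corneal epithelium. The corneal and limbal samples held the epithelium with the upper part of the stroma, the conjunctival sample included the underlying Tenon tissue, and the study states that they came from the same eye. By the study's methods the animals were near the end of the third year of life. The labels give no sex or treatment and name no agent or engineered allele. In such mixed tissue, fewer cells of a type and less RNA per cell cannot be told apart. The deposited values are RMA intensities on a linear scale, with a median over all probe sets of 49.0 in limbus, 48.8 in cornea, and 50.7 in conjunctiva. No array was replicated, so the differences carry no replicate error and were not tested.

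The agreement between probe sets of a gene gave the only internal check on a ratio. Probe sets of a gene share the RNA, the amplification, and the array. Their spread therefore holds no variation between animals, dissections, or arrays and is not an error of a tissue difference. Among 3918 genes with at least 2 probe sets reaching 100, the log2 ratio of cornea to limbus differed between the brightest and the second probe set by a median of 0.35, with a 90th percentile of 0.95. For the cornea against the conjunctiva, the median difference was 0.39 and the 90th percentile was 1.12, and for the limbus against the conjunctiva they were 0.33 and 0.92. For the control gene GAPDH, the 3′ probe set divided by the 5′ one was 3.12 in limbus, 4.58 in cornea, and 3.83 in conjunctiva. This ratio rises as the labeled RNA gets shorter. For the control gene ACTB it was 11.8, 11.2, and 10.3 in the same order of tissues, so the controls ranked the tissues differently. The part of RNA length in the differences below was not tested. Scaling was a further source of uncertainty. When each array was set to equal means of 9 hybridization control probe sets, every log2 ratio of cornea to limbus shifted by -0.66, that of cornea to conjunctiva by -0.34, and that of limbus to conjunctiva by 0.32.

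The 10 genes had 31 probe sets with a single symbol, and 12 of these reached a value of 100 in any tissue. Unless another is named, a level below comes from the brightest probe set, the one whose log2 values had the highest mean. On that probe set 7 genes reached 100, and the receptors PTGER2, PTGER3, and PTGFR did not. A gene was counted for a tissue when its value there exceeded both others by 2-fold or more, the selection used in the study. PTGS2 and PTGDS were counted for the cornea, where 1.89% of all named genes were counted. HPGD was counted for the limbus, with 0.475% of all named genes, and PTGER4 for the conjunctiva, with 1.68%. The other 6 genes were counted for no tissue. PTGER4, 2.38-fold over the next tissue, lay nearest to the limit among the counted genes, and PTGFR, 1.58-fold over the next, among the others. These counts restate the choice of the genes and nothing is read from them.

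**Figure D1:**
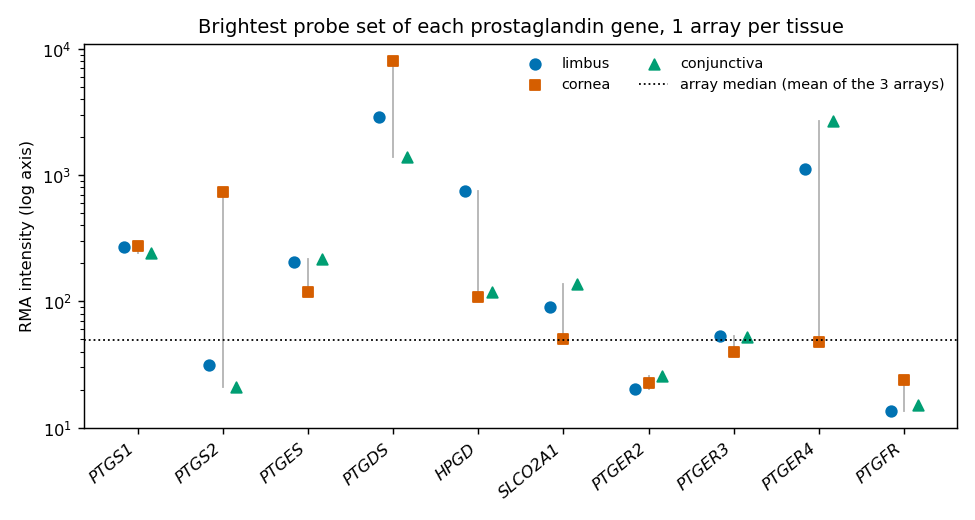
RMA intensity (log axis) of the brightest probe set of each of the 10 genes for limbus (circles), cornea (squares), and conjunctiva (triangles), from 1 array each; vertical lines span the 3 values, and the dotted line is the mean of the 3 array medians. PTGS2 stands at 731 in the cornea and under the array median elsewhere, HPGD at 753 in the limbus, and PTGER4 at 2662 in the conjunctiva and 47.9 in the cornea.

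The inducible cyclooxygenase PTGS2 was expressed preferentially in the cornea on both of its probe sets. On probe set 204748_at its value was 731 in cornea, 31.3 in limbus, and 21.0 in conjunctiva. The value in cornea exceeded that in limbus by 23.4-fold and that in conjunctiva by 34.8-fold. Of all 19775 named genes, PTGS2 had the largest ratio of cornea to limbus, and 10 genes, PTGS2 among them, had a ratio of cornea to conjunctiva at least as large as its own. On probe set 1554997_a_at the values were 224 in cornea, 22.0 in limbus, and 12.9 in conjunctiva, which gave 10.2-fold and 17.4-fold. The limbus and the conjunctiva were under the median of their arrays on both probe sets, so the size of these ratios rests on low values. With a pseudocount of 32 added to every value, the first probe set gave 12.1-fold over the limbus and 14.4-fold over the conjunctiva. The log2 ratios of the 2 probe sets differed by 1.20 for cornea against limbus, more than the 90th percentile given above, and both placed the cornea highest.

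The constitutive cyclooxygenase PTGS1 had nearly equal levels in the 3 tissues. Its brightest probe set, 205128_x_at, has an ID that marks possible binding of other transcripts. This probe set was at 269 in limbus, 273 in cornea, and 240 in conjunctiva, so that the highest value was 1.14-fold above the lowest. On the other 3 probe sets that ratio was 1.31, 1.35, and 1.57. The cornea was highest on all 4 probe sets, but its lead over the limbus was 1.01-fold on the brightest and was lost when the arrays were quantile normalized together (0.996) or scaled to the hybridization controls (0.643). The cyclooxygenases thus differed from each other in these arrays: the log2 ratio of cornea to limbus was 4.55 for PTGS2 and 0.02 for PTGS1.

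PTGDS, the lipocalin-type synthase of prostaglandin D2, had its highest level in the cornea and its lowest in the conjunctiva, with high values in every tissue. Probe set 211663_x_at was at 7945 in cornea, 2887 in limbus, and 1394 in conjunctiva. The value in cornea exceeded that in limbus by 2.75-fold and that in conjunctiva by 5.70-fold, and limbus exceeded conjunctiva by 2.07-fold. The 2 other probe sets were at 5710 and 4845 in the cornea, 1968 and 1966 in the limbus, and 1015 and 873 in the conjunctiva. All 3 thus gave the order cornea, limbus, conjunctiva, and their ratios of cornea to conjunctiva lay between 5.55 and 5.70. The IDs of all 3 end in _x_at, which marks probe sets in which some probes can also bind other transcripts. After scaling to the hybridization controls, which shifts all ratios as given above, the corneal lead over the limbus was 1.74-fold, and PTGDS was no longer counted.

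PTGES, the inducible synthase of prostaglandin E2, did not follow PTGS2. On its brightest probe set it was at 118 in cornea, 206 in limbus, and 215 in conjunctiva. The cornea, where PTGS2 was highest, had the lowest PTGES value, 1.82-fold under the conjunctiva. The second probe set was at 112 in cornea, 114 in limbus, and 142 in conjunctiva, a range of 1.27-fold. Both probe sets placed the cornea lowest, and neither reached a 2-fold difference in the values as deposited. After scaling to the hybridization controls, the brightest probe set was 2.76-fold higher in the limbus and 2.30-fold higher in the conjunctiva than in the cornea, and the ratio of conjunctiva to limbus turned to 0.835.

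HPGD, the dehydrogenase that inactivates prostaglandins E2 and F2 alpha, was highest in the limbus on the single probe set of the gene that reached 100. Probe set 203914_x_at was at 753 in limbus, 109 in cornea, and 119 in conjunctiva. The value in limbus exceeded that in cornea by 6.91-fold and that in conjunctiva by 6.31-fold, while the cornea and the conjunctiva differed by 1.09-fold. Only 23 named genes, HPGD included, had a ratio of limbus to conjunctiva at least as large, and 74 had one of limbus to cornea. The other 3 probe sets of HPGD did not show this difference. Probe set 211548_s_at was at 48.3 in limbus, 45.1 in cornea, and 52.2 in conjunctiva. Probe set 211549_s_at had its highest value in the limbus, with 41.1 against 25.4 (cornea) and 30.0 (conjunctiva), a lead of 1.37-fold over the conjunctiva. Probe set 203913_s_at was at 10.9, 13.7, and 14.1 in the same order of tissues. The limbal preference of HPGD on these arrays therefore rests on 1 of 4 probe sets, one whose ID marks possible binding of other transcripts. The median over the 4 gave a log2 ratio of limbus to conjunctiva of 0.12 in place of 2.66. This median averages 211548_s_at and 211549_s_at, whose values lay near or under the array medians, and leaves 203914_x_at out. At such low values it says little about the difference on 203914_x_at.

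SLCO2A1, the transporter that carries prostaglandins into cells ahead of their oxidation, had its highest level in the conjunctiva. Its single probe set was at 136 in conjunctiva, 90.4 in limbus, and 50.3 in cornea. The conjunctival value was 2.70-fold above the corneal one, and the log2 ratio of limbus to conjunctiva was -0.59, so SLCO2A1 was counted for no tissue. The order of its levels, conjunctiva, limbus, cornea, differed from that of HPGD on its brightest probe set, which had similar levels in the conjunctiva and the cornea. HPGD probe set 211548_s_at, which did not reach 100, had the same order as SLCO2A1, and the remaining HPGD probe sets did not.

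**Figure D2:**
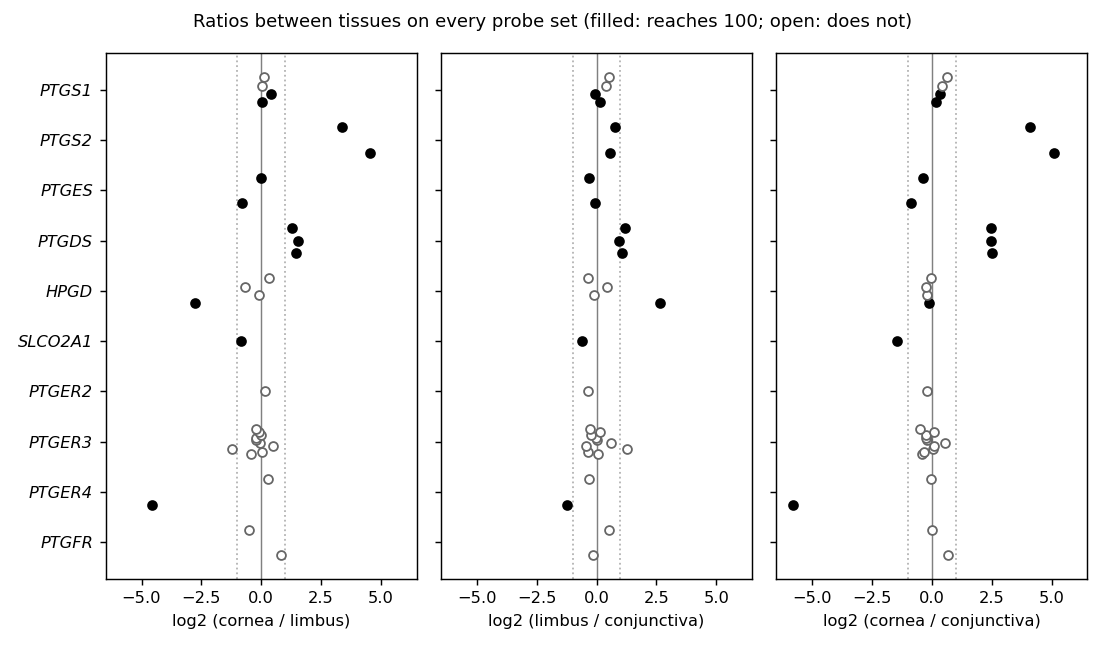
Log2 ratios of cornea to limbus (left), limbus to conjunctiva (middle), and cornea to conjunctiva (right) on all 31 probe sets of the 10 genes; filled points reach a value of 100 in at least 1 tissue, open points do not, and dotted lines mark 2-fold. The 3 PTGDS and both PTGS2 probe sets lie together on the side of the cornea, whereas the 1 filled point of HPGD and the 1 of PTGER4 stand apart from the open points of the same gene.

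PTGER4, the EP4 receptor for prostaglandin E2, had its highest level in the conjunctiva and a level close to the array median in the cornea. Probe set 204897_at was at 2662 in conjunctiva, 1117 in limbus, and 47.9 in cornea. The value in conjunctiva exceeded that in limbus by 2.38-fold and that in cornea by 55.6-fold, and limbus exceeded cornea by 23.3-fold. Only 4 named genes, PTGER4 included, had a ratio of conjunctiva to cornea at least as large, and 7 had one of limbus to cornea. With the pseudocount of 32 the ratios to the cornea were 33.7 for the conjunctiva and 14.4 for the limbus, and after scaling to the hybridization controls the lead of the conjunctiva over the limbus was 1.91-fold, under the 2-fold rule. The second probe set, 204896_s_at, was at 77.9 in conjunctiva, 62.7 in limbus, and 76.0 in cornea, with no difference above 1.24-fold. The tissue differences of PTGER4 thus rest on 1 of 2 probe sets.

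The other receptors were low throughout. PTGER2, the EP2 receptor, was at 25.6 in conjunctiva, 22.5 in cornea, and 20.0 in limbus, all under the array medians. PTGFR, the receptor for prostaglandin F2 alpha, was at 23.8 in cornea, 15.1 in conjunctiva, and 13.5 in limbus on one probe set and at 13.3, 13.2, and 18.9 on the other, so that the probe sets named different tissues as highest. PTGER3, the EP3 receptor, had 10 probe sets with values between 9.87 and 55.5, of which 5 were highest in the limbus, 4 in the conjunctiva, and 1 in the cornea. One of them, 213933_at, was at 55.5 in limbus, 23.8 in cornea, and 22.7 in conjunctiva, which met the 2-fold rule for the limbus. Its value in the limbus was just above the array median, and none of the other 9 PTGER3 probe sets met the rule. Over the 19 probe sets of the 10 genes that did not reach 100, the median ratio of the highest to the lowest tissue was 1.35, compared with 1.31 over all probe sets of the array under 100. At such levels no order of the tissues was read for PTGER2, PTGER3, or PTGFR. A low value on a human array can also come from probes that match the vervet transcript poorly, which was not tested.

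Between tissue pairs, the genes fell into opposite directions. The cornea and the limbus were at least 2-fold apart for 4 of the 10 genes, compared with 6.57% of all named genes: PTGS2 and PTGDS were higher in the cornea, and HPGD and PTGER4 in the limbus. Cornea and conjunctiva were apart for 4 genes, compared with 11.0% of all named genes, with PTGS2 and PTGDS higher in the cornea and SLCO2A1 and PTGER4 higher in the conjunctiva. The limbus and the conjunctiva were apart for PTGDS and HPGD, higher in the limbus, and for PTGER4, higher in the conjunctiva, compared with 4.94% of all named genes. These values chose the genes, and the pairs share arrays. For the 10 genes, the log2 value less the average of the remaining tissues had a median of 0.10 in limbus, -0.21 in cornea, and 0.00 in conjunctiva, against -0.04, 0.02, and 0.01 over all named genes.

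**Figure D3:**
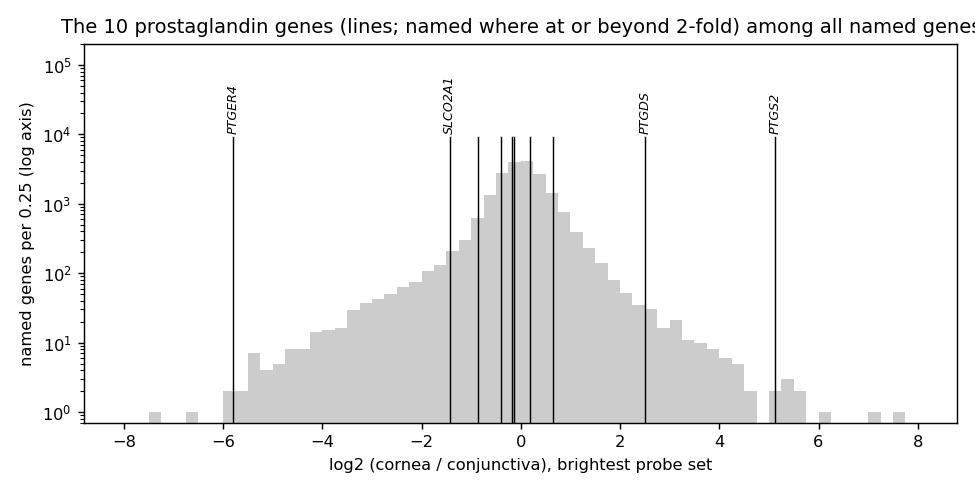
Number of named genes (log axis) per interval of 0.25 in the log2 ratio of cornea to conjunctiva, on the brightest probe set of each of 19775 genes; vertical lines mark the 10 prostaglandin genes and those at least 2-fold apart are named. PTGS2 (5.12) and PTGER4 (-5.80) lie in opposite tails of the distribution, PTGDS is at 2.51 and SLCO2A1 at -1.43, and the other 6 lie between -1 and 1.

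A list of 31 other genes of the prostaglandin pathway, 28 of them with a probe set of their own, was read in the same way. In the cornea 4 of the 28 were counted, in the conjunctiva 1, and in the limbus 0, beside 1.89%, 1.68%, and 0.475% of all named genes. Among the enzymes that release arachidonic acid, PLA2G4A, the cytosolic phospholipase that acts ahead of the cyclooxygenases, was at 1758 in cornea, 517 in limbus, and 209 in conjunctiva. The value in cornea exceeded that in limbus by 3.40-fold and that in conjunctiva by 8.40-fold, on the single probe set of the gene. The secreted phospholipase PLA2G2A had the opposite pattern, with 3741 in conjunctiva, 237 in limbus, and 74.7 in cornea, so that the conjunctival value was 15.8 times the limbal one. Of the 5 remaining release genes measured, none met the rule.

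Among the other terminal synthases, AKR1C3, which forms prostaglandin F2 alpha among other products, was at 120 in cornea, 56.9 in limbus, and 30.8 in conjunctiva. Its corneal value was 2.11 times its limbal one, just past the rule. PTGES3, PTGES2, CBR1, PTGIS, TBXAS1, and HPGDS were not counted, but not all of them were level. PTGIS was at 179 in conjunctiva, 102 in limbus, and 78.5 in cornea. CBR1 was at 1162 in limbus, 900 in cornea, and 573 in conjunctiva. The highest value was 1.40-fold above the lowest for PTGES2 and 1.53-fold for TBXAS1. PTGES3, the cytosolic synthase of prostaglandin E2 and a cochaperone, was nearly level, with 2487 in limbus, 2265 in cornea, and 2423 in conjunctiva. HPGDS, the hematopoietic synthase of prostaglandin D2, had values between 35.1 and 51.0, around the array medians. None of the 3 enzymes of further breakdown (PTGR1, PTGR2, CBR3) was counted, although CBR3 was at 1131 in cornea, 712 in limbus, and 380 in conjunctiva. The 6 genes listed under receptors were PTGER1, PTGDR, PTGDR2, PTGIR, TBXA2R, and PTGFRN, the last a regulator of PTGFR and not itself a prostaglandin receptor. None of them was counted, and their highest-to-next ratio was at most 1.53, for PTGDR2. Of the transporters, SLCO3A1 was at 698 in cornea, 2.01-fold above its limbal value of 347, and at 251 in conjunctiva, and each of its 4 probe sets was highest in the cornea, although only the brightest met the rule. SLCO4A1 was at 116 in cornea, 56.4 in limbus, and 55.5 in conjunctiva; its second probe set was highest in the conjunctiva, at 63.1. After scaling to the hybridization controls, 1 of the 28 genes was counted for the cornea. The median log2 difference of the 28 genes was 0.06 in limbus, -0.10 in cornea, and 0.02 in conjunctiva, close to that of all named genes.

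The lipoxygenase branch, which uses the same arachidonic acid to make leukotrienes, was read for comparison from 13 listed genes, 12 of them measured. ALOX5, which starts leukotriene synthesis, was the 1 gene counted, in the conjunctiva, with 472 there, 184 in the limbus, and 81.8 in the cornea, beside 1.68% of all named genes counted for the conjunctiva. The other 3 ALOX5 probe sets did not meet the rule: one was at 153 in conjunctiva, 116 in limbus, and 49.0 in cornea, another ranged from 80.4 to 91.2, and the last was under the median of every array. Its partner protein ALOX5AP was at 207 in conjunctiva, 106 in limbus, and 60.4 in cornea, 1.94-fold above the limbus and just under the rule. No lipoxygenase branch gene was counted for the cornea or the limbus.

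**Figure D4:**
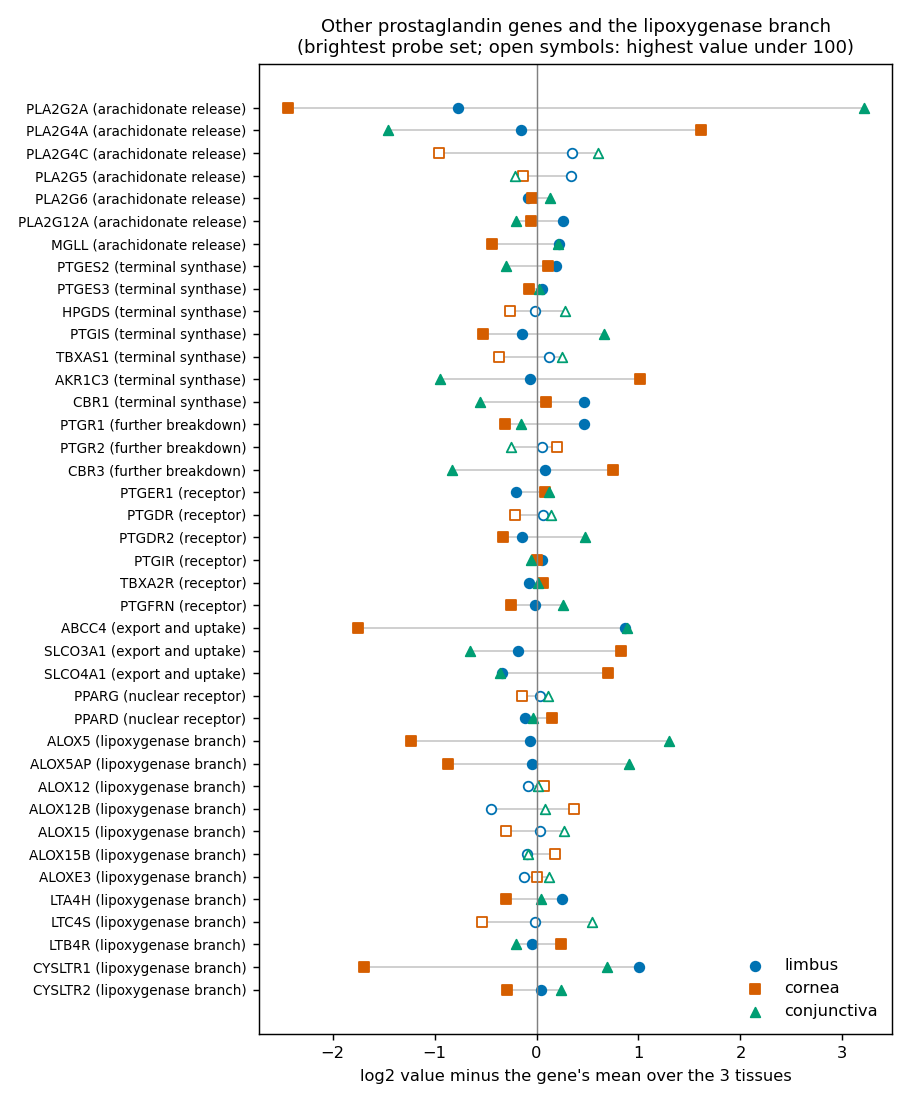
Log2 value minus the mean of the 3 tissues for 28 other prostaglandin pathway genes and 12 lipoxygenase branch genes, brightest probe set, for limbus (circles), cornea (squares), and conjunctiva (triangles); open symbols mark genes whose highest value is under 100, and the role stands in parentheses. PLA2G2A (3741 in the conjunctiva) and PLA2G4A (1758 in the cornea) have the widest spread toward opposite tissues, and none of the 6 genes listed under receptors differs by more than 1.75-fold between tissues.

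For each of the 4 counted genes, the 3 most alike genes were those with the smallest distance between log2 values centred over the 3 tissues, among 11003 named genes reaching 100. For HPGD these were TNC (distance 0.27), WIF1 (0.30), and LHFPL3 (0.32). TNC, a matrix glycoprotein, was at 214 in limbus, 27.8 in cornea, and 39.6 in conjunctiva, and WIF1, a secreted Wnt antagonist, at 593, 91.9, and 124. For PTGDS they were ETV5 (0.09), CDC40 (0.10), and ESYT3 (0.17). No gene came as close to PTGS2, for which GEM (0.92), RGS7 (0.93), and MTUS2 (0.95) were nearest, and for PTGER4 the nearest were KYNU (0.49), AGR3 (0.56), and RBPMS (0.60). With only 3 values per gene, 104 genes lay within a distance of 0.5 of PTGDS, 7 of HPGD, 1 of PTGER4, and 0 of PTGS2.

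Markers of several cell types moved with the tissues as well. All 3 corneal epithelial markers (KRT12, KRT3, ALDH3A1) and all 3 keratocyte markers (KERA, LUM, ALDH1A1) were highest in the cornea, the tissue in which PTGS2 and PTGDS were highest, and 2 of each list met the 2-fold rule. The summed level of the keratocyte markers was 6881 in cornea, 2259 in limbus, and 1723 in conjunctiva, and that of the epithelial markers was 17550, 5755, and 1156. ALDH1A1 (6432 in cornea) made up most of the keratocyte sum, while KERA was at 312 in cornea, 85.3 in limbus, and 18.5 in conjunctiva and LUM at 137, 80.4, and 46.2. In the limbus, where HPGD was highest, all 3 measured melanocyte markers (TYRP1, TYR, MLANA) were highest, with a sum of 781 against 139 (cornea) and 231 (conjunctiva). In the conjunctiva, where PTGER4 was highest, the sums of the goblet and mucosal markers (3555 against 587 in the limbus and 281 in the cornea), of the blood endothelial markers (1798, 1022, and 227), and of 3 measured leukocyte markers (688, 325, and 182) were highest. All 3 markers of each of these lists (MUC5AC, TFF1, KRT7; PECAM1, VWF, CDH5; PTPRC, CD14, ITGAM) had the same order of tissues as PTGER4. Smooth muscle and pericyte markers summed to 2120 in conjunctiva, 859 in limbus, and 521 in cornea, but of these markers only MYH11 had that order. ACTG2 (236 in cornea, 122 in limbus) and DES (111 and 108) were lowest in the limbus. RGS5 was highest in the limbus (470, against 446 in conjunctiva). The 2 measured mast cell markers summed to 231, 167, and 109. CPA3 had that order, whereas TPSAB1, under 100 in every tissue, was lowest in the limbus. The fibroblast markers summed to 9548, 6323, and 9934. Of these, DCN was highest in the cornea (9335). COL3A1, at 2105, 519, and 46.3, and PDGFRA, at 1029, 720, and 553, were highest in the conjunctiva and lowest in the cornea. The part of these cell types in the differences of the 10 genes was not tested.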

How the data were processed

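RNA of 3 tissues was measured on 1 human array each. The authors amplified total RNA in 2 rounds and normalized every array by RMA (justRMA) together with reference arrays held constant. RMA is also named, with no version, in the submitters' processing notes. The deposited intensities, linear values of 54675 probe sets with 0 missing, were used as given. Because the arrays were not normalized with each other, differences of scale can remain.

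Gene symbols came from GEO's platform annotation, which can be old: 41097 probe sets carried 1 symbol, 1801 carried several and were not used for any gene, and 11777 stay unnamed. Groups were taken from the sample titles. The probe set of highest mean log2 value stood for its gene, and the 2-fold rule had no filter on level. The genes, the lists, and the alternatives were chosen with earlier results of these data known. The text names all 10 genes on all probe sets, the list genes that met the rule, the terminal synthases and receptors of the list, and the 3 genes most alike each counted gene. With 1 array per tissue no test was possible, and precision is limited by the number of arrays. The counting code was checked on simulated data with small noise and changes well past the 2-fold limit. That checks the code and says nothing about calls near the limit. Alternatives, 9 in all, vary the array scaling, the pseudocount (32), the fold, a minimum level of 100, and the choice of probe set. Python 3.11.15, numpy 2.4.6, pandas 2.3.3, and matplotlib 3.10.9 were used. No sequence of a probe or transcript and no coordinate was used here.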

Additional observations from a re-analysis of the deposited data

How the results depend on the processing

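The leading differences of PTGS2, PTGDS, HPGD, and PTGER4 kept their direction under every scaling, the pseudocount, and the median over probe sets. Most of these settings could not have turned them. A pseudocount cannot reverse an order. Scaling to the median or to the hybridization controls shifted log2 ratios uniformly by 0.66 or less, whereas these log2 leads were 1.25 or more. Quantile normalization was not bound in this way. Every probe set of PTGS2, of PTGDS, and of PTGER4 placed the same tissue highest, so a median over them could not turn these leads. Among these genes, the median over probe sets could have turned HPGD alone. Of 50 ratios of the highest to the next tissue recomputed for the 10 genes, 44 kept direction and side of 2-fold and none of the counted ones turned. PTGDS (0.80) and PTGER4 (0.93) fell under 2-fold on the log2 scale after scaling to hybridization controls, and HPGD (0.12) did so when the median of its probe sets was taken. The remaining 3 concern PTGS1 (-0.01 after quantile normalization and -0.64 with hybridization controls) and PTGES (-0.26 with hybridization controls), whose ratios of the highest to the next tissue stayed under 2-fold. PTGES in limbus and conjunctiva was over 2-fold above the cornea with hybridization controls, and 6 of the 10 genes then separated the cornea from the limbus in place of 4. The cause of these changes was not tested beyond the uniform shift of the control scaling.

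Counts changed as follows, with other counts within 1.5 times. With hybridization controls, 1 of the 10 genes was counted for the cornea in place of 2 and 0 for the conjunctiva in place of 1; 1 pathway gene was counted for the limbus in place of 0 and 1 for the cornea in place of 4; and all named genes counted became 500 for the limbus (from 94), 94 for the cornea (from 374), and 173 for the conjunctiva (from 332). With the pseudocount, pathway genes in the cornea became 1, and all named genes became 43 in the limbus and 209 in the conjunctiva. At 1.5-fold, 2 of the 10 genes were counted for the conjunctiva, 1 pathway gene for the limbus and 3 for the conjunctiva, 433, 1243, and 1050 named genes for the limbus, cornea, and conjunctiva, and 7 of the 10 genes separated the cornea from the limbus. At 3-fold, 1 of the 10 genes was counted for the cornea and 0 for the conjunctiva, 1 pathway gene for the cornea, 21, 97, and 99 named genes, and 1 of the 10 genes separated the limbus from the conjunctiva. With any probe set of a gene, 2 of the 10 genes (PTGER3 added) and 163 named genes were counted for the limbus. By the median over probe sets, 0 of the 10 genes were counted for the limbus, 2 pathway genes for the cornea, and 1 of the 10 genes separated the limbus from the conjunctiva. Values under 100, which include all those of PTGER2, PTGER3, and PTGFR, limit what the arrays can show for these receptors.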

Other observations

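Some genes of the lists were low in the cornea alone, a pattern picked out after their values were seen. ABCC4, an exporter of prostaglandin E2 from cells, was at 40.9 in cornea, 250 in limbus, and 255 in conjunctiva on its brightest probe set, a ratio of 6.23 between the highest and the lowest. The other 3 ABCC4 probe sets had values of 41.5 or lower in every tissue and did not show this difference. CYSLTR1, a receptor for cysteinyl leukotrienes, was at 38.3 in cornea, 249 in limbus, and 200 in conjunctiva. A second CYSLTR1 probe set was also lowest in the cornea, at 25.4 against 60.6 and 78.4. In all, 3 of the 28 pathway genes and 2 of the 12 lipoxygenase branch genes were at least 2-fold lower in cornea than in limbus and conjunctiva alike, compared with 2.93% of all named genes, and PTGER4 was the 1 of the 10 prostaglandin genes with this pattern.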
